A study of Saccharomyces cerevisiae with 12 samples.

Results

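The question here was whether yeast carrying a pathway for bikaverin answered a high level of S-adenosylmethionine (SAM) in the same way as yeast carrying the plasmid pRS416. For each gene the difference between a high-SAM and a low-SAM strain was taken within each of 2 deposited tables, and the pRS416 difference was subtracted from the bikaverin difference. Of 7125 features listed in either table, 6524 were listed in both and used, and 6247 of these had a mean of at least 1 FPKM (fragments per kilobase per M reads) over the 12 libraries and were tested. The features nearest the limit were YPR074W-A at 1.003 FPKM, just inside, and YGR022C at 0.991 FPKM, just outside.

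All samples were Saccharomyces cerevisiae at 36 h, with 3 libraries of each of 4 strains. YJ-06 (high SAM level) and YJ-04 (low SAM level) had the bikaverin biosynthesis module introduced. YJ-09 (high SAM level) and YJ-08 (low SAM level) had plasmid pRS416. The sources used here state neither the strain background nor the medium, nor how SAM was raised, nor whether a strain is 1 clone. They do not say either that replicates were grown separately, so the p-values stand for the spread among these libraries alone, which may be technical. The bikaverin libraries were scaled to 15.4 to 17.7 M reads and the pRS416 libraries to 40.7 to 45.1 M reads. The module, the table and the depth change together between the pairs, so their parts in any difference cannot be told apart. Within a pair each SAM level is 1 strain, so SAM cannot be separated from any other difference between those strains. A response to high SAM here means only the high-SAM strain against its low-SAM partner. Log2(FPKM + 1) correlated across genes at 0.981 to 0.997 between libraries of 1 strain, and its median SD within a strain was 0.131 in YJ-06, 0.113 in YJ-04, 0.113 in YJ-09 and 0.0661 in YJ-08.

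SAM is made from methionine and ATP by the SAM synthetases, and it gives its methyl group to lipids, RNA, proteins and small molecules. Bikaverin is a red fungal polyketide whose synthesis includes methylation steps, so its pathway draws on the same methyl donor. pRS416 is a low-copy yeast plasmid that carries URA3 as its marker. In yeast the genes that bring in sulfate and reduce it to sulfide are switched on by the activator Met4 when methionine and cysteine run low, and high SAM is known to be linked to their repression.

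Calls were made with limma, a linear model for all features at once, where the p adjusted by Benjamini-Hochberg fell below 0.05. The response differed between the pairs for 3600 of the 6247 features, or 57.6%. It was higher in the bikaverin pair for 1744 features (27.9%) and lower for 1856 (29.7%). The difference reached at least 1 on the log2(FPKM + 1) scale for 540 of the higher (8.64%) and 689 of the lower features (11.0%). The median difference over all features was -0.0042, and the 5th and 95th percentiles were -1.61 and 1.32. A count of list members is to be read against these shares, which are high.

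The commonest kind of called difference was a response called in the pRS416 pair and not in the bikaverin pair, with 1332 features or 37.0% of the calls. The reverse, a response called in the bikaverin pair alone, held 482. The pairs were fitted apart and differ in depth and spread, so a response not called in a pair may still be present there. In opposite directions, 265 features (4.24%) were called up in YJ-06 and down in YJ-09, and 296 (4.74%) down in YJ-06 and up in YJ-09. Counts in each pair by itself were 1828 higher (29.3%) and 1775 lower (28.4%) in YJ-06 than in YJ-04, and 2469 higher (39.5%) and 2399 lower (38.4%) in YJ-09 than in YJ-08. Where both pairs moved the same way, the pRS416 pair moved further for 453 of the genes that rose and 355 of those that fell, and the bikaverin pair for 182 and 175. A further 60 features were called in neither pair. Across all tested features the responses of the pairs correlated at 0.586 (Pearson) and 0.508 (Spearman). Medians by chromosome ran between -0.22 on chromosome I and 0.06 on chromosome II.

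**Figure D1:**
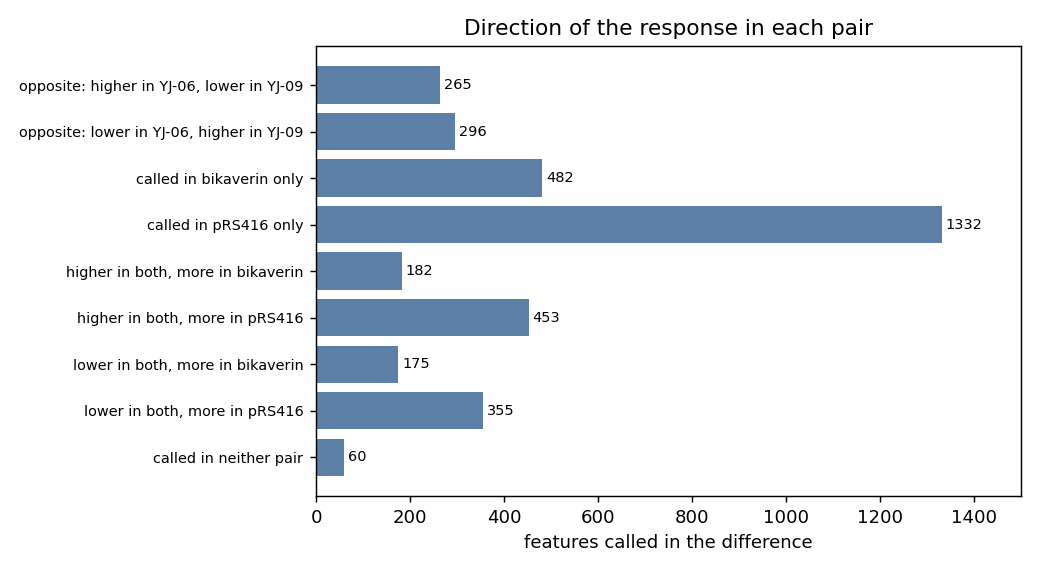
Number of features called in the difference (horizontal axis) for each combination of directions in the bikaverin and pRS416 pairs (rows). The longest bar is the 1332 features called in the pRS416 pair and not in the bikaverin pair, and 265 and 296 features moved in opposite directions.

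**Figure D2:**
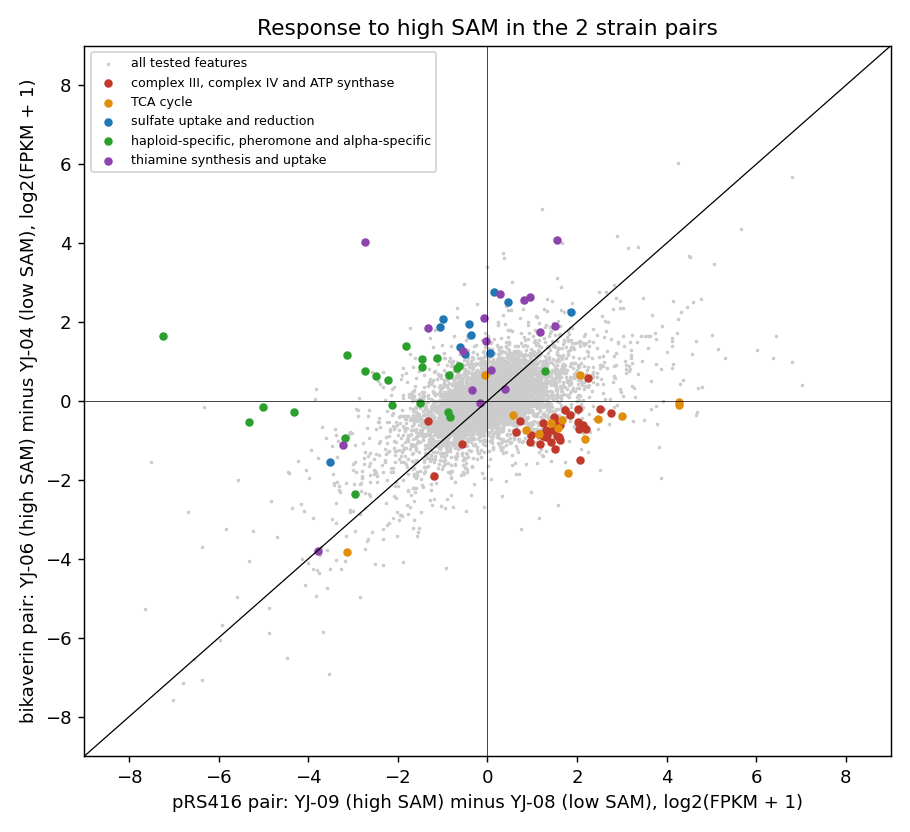
Change with high SAM in the bikaverin pair (vertical axis) against that in the pRS416 pair (horizontal axis), both on the log2(FPKM + 1) scale, 1 point a feature; the diagonal marks equal responses. Genes of respiratory complexes and the TCA cycle lie mostly right of 0 and below 0, and sulfate genes mostly in the upper left. Haploid-specific, pheromone and alpha-specific genes share 1 colour and lie mostly left of 0.

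Genes for taking up and reducing sulfate rose with high SAM in the bikaverin pair and mostly fell in the pRS416 pair. Of 11 on the list, 10 rose in YJ-06, while 2 rose and 7 fell in YJ-09. Over all features 29.3% rose in YJ-06, while 39.5% rose and 38.4% fell in YJ-09. The response was higher in the bikaverin pair for 10 of the 11 sulfate genes, against 27.9% of all features. None of the 11 had a lower one. The median difference was 2.03 against -0.0042 over all features. The median change was 1.87 in YJ-06 over YJ-04 and -0.42 in YJ-09 over YJ-08. Called in opposite directions, up in YJ-06 and down in YJ-09, were 6 of them, against 4.24% of all features.

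MET14, the kinase of adenylyl sulfate, was at 147, 197 and 150 FPKM in YJ-06, against 34.6, 41.6 and 37.2 FPKM in YJ-04. In the pRS416 pair it was at 93.1, 102 and 83.7 FPKM in YJ-09, against 194, 191 and 167 FPKM in YJ-08. The libraries did not overlap in either pair, as for 66.2% of all features in the bikaverin pair and 80.5% in the pRS416 pair, and the direction was opposite: the difference was 3.07 (SE 0.17, limma adjusted p = 1.7e-08). MET5, a subunit of sulfite reductase, behaved alike, at 65.3, 102 and 82.4 FPKM in YJ-06 against 18.8, 22.9 and 23.6 FPKM in YJ-04, and at 41.8, 38.9 and 37.7 FPKM in YJ-09 against 84.4, 86.5 and 78.3 FPKM in YJ-08. Its difference was 2.93 (SE 0.19).

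MET3, ATP sulfurylase and the first enzyme of the pathway, changed by 2.75 in the bikaverin pair and was not called in the pRS416 pair (0.15, adjusted p = 0.14 in limma). Its libraries read 80.4, 146 and 121 FPKM in YJ-06 against 16.2, 17.2 and 14.2 FPKM in YJ-04. In the pRS416 pair they read 55.4, 54.4 and 50.5 FPKM in YJ-09 against 52.2, 50.1 and 42.0 FPKM in YJ-08, where the lowest YJ-09 value lies below the highest YJ-08 value. MET17, which makes homocysteine from sulfide, rose in both pairs and further in the bikaverin pair (2.51 against 0.47). Reads of MET17 cannot be told apart from those of YLR302C where the 2 overlap, since the strand setting of the counting is not given.

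The sulfate permeases differed from each other. SUL2 was at 64.2, 150 and 133 FPKM in YJ-06 against 27.6, 26.8 and 27.2 FPKM in YJ-04, and at 74.7, 78.8 and 79.4 FPKM in YJ-09 against 102, 103 and 107 FPKM in YJ-08. SUL1 fell in both pairs, to 13.9, 15.3 and 14.5 FPKM in YJ-06 against 36.9, 42.9 and 55.9 FPKM in YJ-04, and to 15.6, 14.4 and 20.1 FPKM in YJ-09 against 212, 205 and 185 FPKM in YJ-08. It counts as higher in the bikaverin pair because its fall was smaller there, with a difference of 1.97 (SE 0.20). MET10, the other subunit of sulfite reductase, rose in both pairs (2.25 and 1.87) and its difference of 0.38 was not called.

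Upstream windows are shown for MET14 and MET5 because theirs were the largest differences among sulfate genes that hold the motif CACGTG, which the factor Cbf1 binds with Met4. Each window runs over 250 bases and begins 350 bases before the start codon in build R64 and is printed 5′ to 3′ on the coding strand, with the motif in capitals. MET14 lies at chrXI:439486-439735 on the minus strand and MET5 at chrX:683386-683635 on the minus strand.
MET14: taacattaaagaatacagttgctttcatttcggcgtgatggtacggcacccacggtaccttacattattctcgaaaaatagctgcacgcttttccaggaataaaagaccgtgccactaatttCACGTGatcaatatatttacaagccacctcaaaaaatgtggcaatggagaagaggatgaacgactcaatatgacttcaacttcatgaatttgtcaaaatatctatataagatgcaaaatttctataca
MET5: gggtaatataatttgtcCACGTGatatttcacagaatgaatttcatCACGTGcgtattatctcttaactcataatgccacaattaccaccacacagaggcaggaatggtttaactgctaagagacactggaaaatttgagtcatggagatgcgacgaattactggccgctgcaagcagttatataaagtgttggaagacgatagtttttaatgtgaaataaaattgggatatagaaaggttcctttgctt
CACGTG stood in this window for 9 of 11 sulfate genes (81.8%) and for 227 of 6007 genes (3.78%). It stood in 5.79% of windows of genes called with a difference of at least 1 and in 3.95% of those called at -1 or less. All motifs named here were searched on both strands, without regard to overlap, and a match is a description of letters, not of a bound site.

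Permeases and scavengers of other sulfur compounds leaned the same way, with 8 of 11 higher, 1 lower and a median of 1.56. Over all features 27.9% were higher and 29.7% lower. JLP1, which releases sulfite from sulfonates, was at 101, 117 and 122 FPKM in YJ-06 against 57.8, 61.7 and 84.4 FPKM in YJ-04, and at 31.9, 32.0 and 36.7 FPKM in YJ-09 against 170, 174 and 175 FPKM in YJ-08. Its difference was 3.08 (SE 0.17). YCT1, a cysteine transporter, fell in YJ-09 by 2.40 and was not called in the bikaverin pair (0.43). MUP1, the high-affinity methionine permease, rose in both, by 2.53 and 0.77. Among Met4 and the genes that act with it or on it, MET30, MET31 and MET32 were higher in the difference (0.96, 0.93 and 1.02). MET4 and CBF1 themselves were not called (-0.05 each).

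Of 7 genes that make or recycle SAM 2 were higher and 2 lower, close to the shares over all features (27.9% and 29.7%). The SAM synthetase SAM1 rose in both pairs, to 485, 537 and 427 FPKM in YJ-06 against 129, 132 and 186 FPKM in YJ-04, and to 312, 356 and 370 FPKM in YJ-09 against 100.4, 94.9 and 95.6 FPKM in YJ-08. Its difference of -0.12 (SE 0.19) was not called. SAM2, the other synthetase, rose more in the pRS416 pair (2.27 against 1.53), with a difference of -0.74 (limma adjusted p = 0.0322). That call was lost, at adjusted p = 0.0502 to 0.0788, without YJ-04 replicate 1 or 2, YJ-06 replicate 3, any 1 of the YJ-08 replicates or YJ-09 replicate 2, and it was 0.0787 with quantile normalization.

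SAH1, which clears the product of methylation, S-adenosylhomocysteine, rose in both pairs and further with pRS416. It was at 839, 563 and 482 FPKM in YJ-06 against 367, 457 and 369.6 FPKM in YJ-04, and at 241, 279 and 266 FPKM in YJ-09 against 48.6, 53.8 and 49.2 FPKM in YJ-08. The difference was -1.73 (SE 0.23). MET6, methionine synthase, moved in opposite directions, at 768, 706 and 556 FPKM in YJ-06 against 323, 344 and 329 FPKM in YJ-04, and at 332, 334 and 321 FPKM in YJ-09 against 456, 459 and 429.6 FPKM in YJ-08.

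Further along the sulfur pathway, 3 of 7 homoserine and methionine synthesis genes were higher and 2 lower, against 27.9% and 29.7% of all features. MET2, which activates homoserine, was up by 0.83 in YJ-06 and down by 1.42 in YJ-09. HOM2, an earlier enzyme of that branch, rose by 1.39 in YJ-09 and was not called in the bikaverin pair. Of 11 transsulfuration and glutathione genes, 5 were higher and 2 lower, against the same shares of all features. CYS4, cystathionine beta-synthase, rose by 1.01 in YJ-06 and fell by 0.87 in YJ-09. GLR1, glutathione reductase, rose steeply in both pairs, to 1355 FPKM on average in YJ-06 against 105 FPKM in YJ-04 and to 1782 FPKM in YJ-09 against 77.4 FPKM in YJ-08, with a difference of -0.83.

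Among 27 methyltransferases that use SAM, 11 were higher and 4 lower, against 27.9% and 29.7% of all features, with a median of 0.43. STE14, which methylates the end of prenylated proteins such as a-factor, was higher in YJ-06 and lower in YJ-09, with a difference of 2.07 (SE 0.18). CHO2, the first methyltransferase from phosphatidylethanolamine to phosphatidylcholine, was at 35.3, 36.0 and 33.0 FPKM in YJ-06 against 67.2, 70.8 and 50.5 FPKM in YJ-04, and at 97.3, 128 and 78.7 FPKM in YJ-09 against 49.7, 47.8 and 47.5 FPKM in YJ-08. The difference was -1.85 (SE 0.22). OPI3, which adds the later methyl groups, was not called (0.46).

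Respiration went the other way. Of the 9 complex III genes all 9 had a lower response in the bikaverin pair, and all 9 were called down in YJ-06 and up in YJ-09, against 4.74% of all features. The same held for 8 of 10 complex IV genes and 12 of 17 ATP synthase genes. In the difference all 10 and 16 of 17 were lower, against 29.7% of all features. The medians were -2.70 for complex III, -2.21 for complex IV and -1.998 for ATP synthase. Complex II had 6 of 7 lower, against 29.7% of all features.

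HAP4, the limiting subunit of the activator of respiratory genes, was at 118, 128 and 131 FPKM in YJ-06 against 276, 304 and 262 FPKM in YJ-04. In the pRS416 pair it was at 1393, 1861 and 1281 FPKM in YJ-09 against 94.5, 108 and 112 FPKM in YJ-08. The libraries separated in both pairs, and the difference was -4.97 (SE 0.18, limma adjusted p = 8.0e-10). Of its partners HAP3 was lower (-1.33), HAP2 and HAP5 were not called (-0.08 and 0.07), and HAP1, a separate heme-responsive activator, was called at 0.32 with adjusted p = 0.0447. The HAP1 call was lost, at adjusted p = 0.0531 to 0.102, without any 1 library other than YJ-06 replicate 2 and YJ-09 replicate 3. It was also lost with the replicate block (adjusted p = 0.0675), with median-centred libraries (0.0542), with quantile normalization (0.0536) and with no intensity trend (0.0533).

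QCR10, a small subunit of complex III, was at 583, 598 and 596 FPKM in YJ-06 against 1472, 1516 and 2102 FPKM in YJ-04. It was at 4143, 5213 and 4066 FPKM in YJ-09 against 1054, 1050 and 1050 FPKM in YJ-08. The difference was -3.58 (SE 0.19). COX7 of complex IV showed the same order, at 379.7, 338 and 353 FPKM in YJ-06 against 819, 814 and 874 FPKM in YJ-04, and at 2290, 2403 and 2178 FPKM in YJ-09 against 838, 744 and 849 FPKM in YJ-08.

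Among 10 genes listed with the NADH dehydrogenases and cytochrome c, 7 were lower and 2 higher, against 29.7% and 27.9% of all features. The median was -0.74. NDE1, an external NADH dehydrogenase, fell by 0.59 in YJ-06 and rose by 3.79 in YJ-09. CYC1, the main cytochrome c, rose in both pairs, to 600.4, 376 and 377 FPKM in YJ-06 against 188, 202 and 144 FPKM in YJ-04, and to 948, 1121 and 1108 FPKM in YJ-09 against 29.4, 29.4 and 27.3 FPKM in YJ-08. Its difference was -3.84 (SE 0.24). CYC7, the other cytochrome c, did the same with a difference of -3.37. The higher genes, named after their values were seen, were NDE2, the other external NADH dehydrogenase (0.43), and CYC3, which attaches heme to cytochrome c (0.37). That count of 2 was 1 with the replicate block or without YJ-04 replicate 1, YJ-06 replicate 1, YJ-08 replicate 1 or 2 or YJ-09 replicate 2, and 0 without YJ-04 replicate 2 or YJ-09 replicate 1.

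In the TCA cycle 13 of 15 genes were lower and none higher, against 29.7% and 27.9% of all features. The median was -2.13. ACO1, aconitase, was at 501, 459 and 501 FPKM in YJ-06 against 1718, 1717 and 1723 FPKM in YJ-04, and at 2228, 2540 and 2379 FPKM in YJ-09 against 672, 681 and 690.5 FPKM in YJ-08. The difference was -3.62 (SE 0.11). IDH1 and IDH2, the subunits of mitochondrial isocitrate dehydrogenase, rose by 4.28 each in YJ-09 and were not called in the bikaverin pair (-0.02 and -0.10). For IDH1 the YJ-06 libraries read 398, 395 and 369.9 FPKM against 456, 433 and 304 FPKM in YJ-04, where they overlap, and the YJ-09 libraries read 1977, 2544 and 2372 FPKM against 115, 120.3 and 116 FPKM in YJ-08.

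Upstream windows are shown for QCR10 and IDH1, the genes of complex III and of the TCA cycle with the largest differences among those whose window holds CCAAT, the core of the site bound by the Hap2/3/4/5 complex. QCR10 lies at chrVIII:107476-107725 on the plus strand and IDH1 at chrXIV:559103-559352 on the minus strand, with the same distances from the start codon and the motif, on either strand, in capitals.
QCR10: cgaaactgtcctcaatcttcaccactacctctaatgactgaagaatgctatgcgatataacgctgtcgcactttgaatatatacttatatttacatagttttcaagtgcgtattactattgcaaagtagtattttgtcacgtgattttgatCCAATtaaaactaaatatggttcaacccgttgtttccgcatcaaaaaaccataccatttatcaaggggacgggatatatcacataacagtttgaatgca
IDH1: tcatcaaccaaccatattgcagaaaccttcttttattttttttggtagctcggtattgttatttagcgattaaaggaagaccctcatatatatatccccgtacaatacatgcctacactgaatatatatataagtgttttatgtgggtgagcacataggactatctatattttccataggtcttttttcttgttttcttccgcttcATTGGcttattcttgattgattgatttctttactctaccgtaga
CCAAT stood in the window for 8 of 9 complex III genes (88.9%), 8 of 10 complex IV genes (80.0%) and 12 of 15 TCA cycle genes (80.0%). It is a common string, found in 37.7% of all windows, in 45.0% of those of genes called at -1 or less and in 32.2% of those called at 1 or more.

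**Figure D3:**
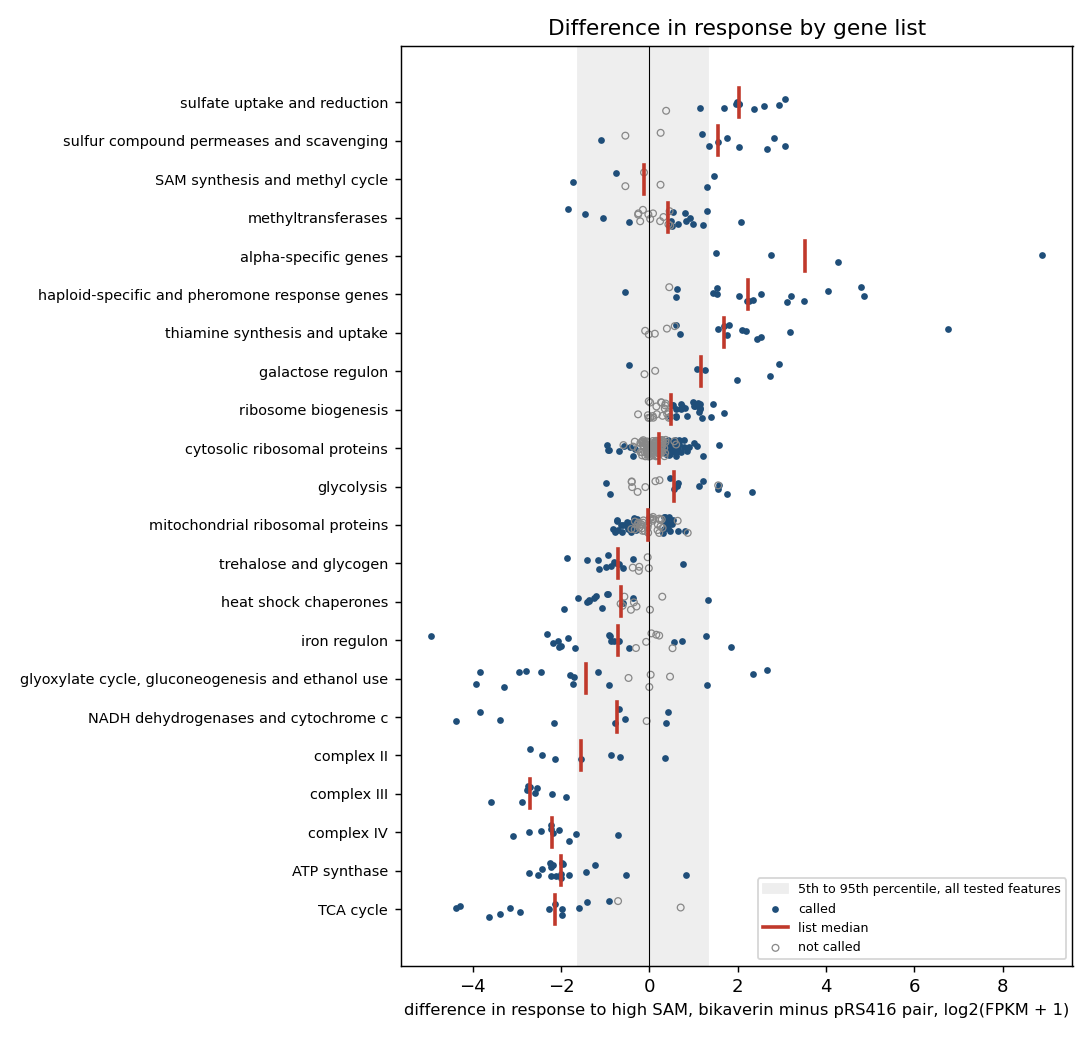
Difference in response (horizontal axis, bikaverin minus pRS416 pair, log2(FPKM + 1) scale) for members of the gene lists (rows), filled where called and open where not, with the list median as a red bar; the grey band spans -1.61 to 1.32. Complex III, complex IV and ATP synthase have medians of -2.70, -2.21 and -1.998, and sulfate uptake and the alpha-specific genes 2.03 and 3.52.

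Genes for growth on non-fermentable carbon were lower in part. Of 18 genes of the glyoxylate cycle, gluconeogenesis and ethanol use, 11 were lower and 3 higher, against 29.7% and 27.9% of all features. The median was -1.43. PCK1, which begins gluconeogenesis, was at 46.1, 37.6 and 42.4 FPKM in YJ-06 against 35.2, 34.2 and 60.03 FPKM in YJ-04, and at 2288, 2678 and 2502 FPKM in YJ-09 against 173, 166 and 148 FPKM in YJ-08. The YJ-06 and YJ-04 libraries overlap, while every YJ-09 library lies far above the YJ-08 libraries. FBP1, fructose bisphosphatase, gave 3.65 in YJ-09 over YJ-08 and was not called in the bikaverin pair (-0.19). ADY2, an acetate transporter, and ALD6, a cytosolic aldehyde dehydrogenase, fell in both pairs and less in the bikaverin pair, with differences of 2.67 and 2.34.

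Of 21 glycolysis genes 11 were higher and 2 lower, against 27.9% and 29.7% of all features, with a median of 0.56. The higher count was 7 without YJ-04 replicate 1, YJ-08 replicate 2 or 3, or YJ-09 replicate 1 or 2, and the lower count was 4 without YJ-06 replicate 3. The list holds near-identical copies such as TDH2 and TDH3, whose reads may be split between them. PGK1, phosphoglycerate kinase, fell by 1.50 in YJ-09 and was not called in the bikaverin pair (0.07). ADH1, the fermentative alcohol dehydrogenase, was lower (-0.89), and that call was lost with quantile normalization (-0.44, adjusted p = 0.0589). Trehalose and glycogen genes had 12 of 18 lower and 1 higher, against 29.7% and 27.9% of all features. Mitochondrial and cytosolic chaperones on the heat shock list had 12 of 21 lower and 1 higher, against the same shares. Among the lower were HSP78 (-1.62) and SSC1 (-1.26), which act inside mitochondria. Among galactose genes 5 of 8 were higher and 1 lower, against 27.9% and 29.7% of all features. GAL1, galactokinase, was at 5019, 7006 and 7063 FPKM in YJ-06 against 6976, 7310 and 7429 FPKM in YJ-04, and at 208, 241 and 262 FPKM in YJ-09 against 1793, 1805 and 1797 FPKM in YJ-08. GAL1 shares bases with the noncoding YNCB0008W, whose reads cannot be told apart from it here.

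Genes of mating and of alpha cells fell in the pRS416 pair. Of 18 haploid-specific and pheromone response genes 17 fell in YJ-09, while in YJ-06 9 rose and 4 fell. Over all features 38.4% fell in YJ-09, and 29.3% rose and 28.4% fell in YJ-06. In yeast, haploid cells make the pheromone signalling proteins, alpha cells also make alpha-factor, and in diploids the a1 protein together with alpha2 shuts both groups off. In the difference 16 of the 18 were higher and 1 lower, against 27.9% and 29.7% of all features, with a median of 2.23. Called up in YJ-06 and down in YJ-09 were 8 of the 18, against 4.24% of all features. All 4 alpha-specific genes tested were of that opposite kind, with a median difference of 3.52. In RNA from whole cultures, fewer cells expressing a gene and less of its RNA per cell cannot be told apart.

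MF(ALPHA)1, the main alpha-factor gene, was at 1707, 1086 and 869.5 FPKM in YJ-06 against 354, 442 and 338 FPKM in YJ-04. It was at 4.07, 3.01 and 3.96 FPKM in YJ-09 against 697, 684 and 740.5 FPKM in YJ-08. The difference of 8.89 (SE 0.28, limma adjusted p = 3.8e-10) was the largest positive one among called genes that reached 10 FPKM in a strain. STE3, the receptor for a-factor, was at 193, 144 and 128 FPKM in YJ-06 against 65.8, 77.6 and 61.9 FPKM in YJ-04, and at 11.3, 10.7 and 13.3 FPKM in YJ-09 against 105, 109 and 116 FPKM in YJ-08.

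The G protein that carries the pheromone signal fell in the pRS416 pair. STE4, its beta subunit, was at 100.3, 78.4 and 77.4 FPKM in YJ-06 against 108, 99.0 and 101 FPKM in YJ-04, and at 8.39, 9.94 and 9.25 FPKM in YJ-09 against 209, 196 and 202 FPKM in YJ-08. It was not called in the bikaverin pair (-0.27), and its difference was 4.05 (SE 0.14). STE18, the gamma subunit, was at 60.9, 70.9 and 70.1 FPKM in YJ-06 against 75.2, 72.6 and 77.2 FPKM in YJ-04, and at 2.69, 2.43 and 1.46 FPKM in YJ-09 against 104, 102 and 96.2 FPKM in YJ-08. GPA1, the alpha subunit, and FUS3, the kinase at the end of the pathway, rose in YJ-06 (0.64 and 1.40) and fell in YJ-09 (by 2.48 and by 1.81). NEJ1, a haploid end-joining factor, was lower in both pairs and had a difference of 4.79.

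HMRA1 (YCR097W), the gene of the a1 protein at the silent HMR locus, was higher in YJ-09 than in YJ-08, the opposite direction to the genes above. It had 20 reads in YJ-06 against 1 in YJ-04, a ratio of 21.2 with an exact 95% counting interval of 3.39 to 877. It had 5679 reads in YJ-09 against 2 in YJ-08, a ratio of 2890 with an interval of 799.6 to 23870. Its FPKM was 138, 133 and 81.7 in YJ-09, and 1.16, 1.37 and 0.783 in YJ-06. The R64 reference has the alpha form at MAT, so reads of an a1 gene at MAT would also fall on HMRA1. Its part in the mating results was not tested. Whether the mating genes followed SAM or another difference between YJ-09 and YJ-08 was not tested either. Of 7 genes specific to a cells 2 were higher and 1 lower, against 27.9% and 29.7% of all features. Their median was -0.03.

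STE18 is shown because it had the largest difference among pheromone genes whose window holds TGAAACA, the element bound by Ste12. It lies at chrX:585718-585967 on the plus strand, and the capitals mark the element, here on the opposite strand.
STE18: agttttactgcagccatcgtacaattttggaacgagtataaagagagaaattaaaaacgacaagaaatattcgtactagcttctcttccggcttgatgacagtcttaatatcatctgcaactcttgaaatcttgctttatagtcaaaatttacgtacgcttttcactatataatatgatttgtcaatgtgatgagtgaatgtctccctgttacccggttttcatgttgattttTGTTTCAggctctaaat
TGAAACA stood in 9 of 18 windows of the list (50%) and in 383 of 6007 (6.38%).

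**Figure D4:**
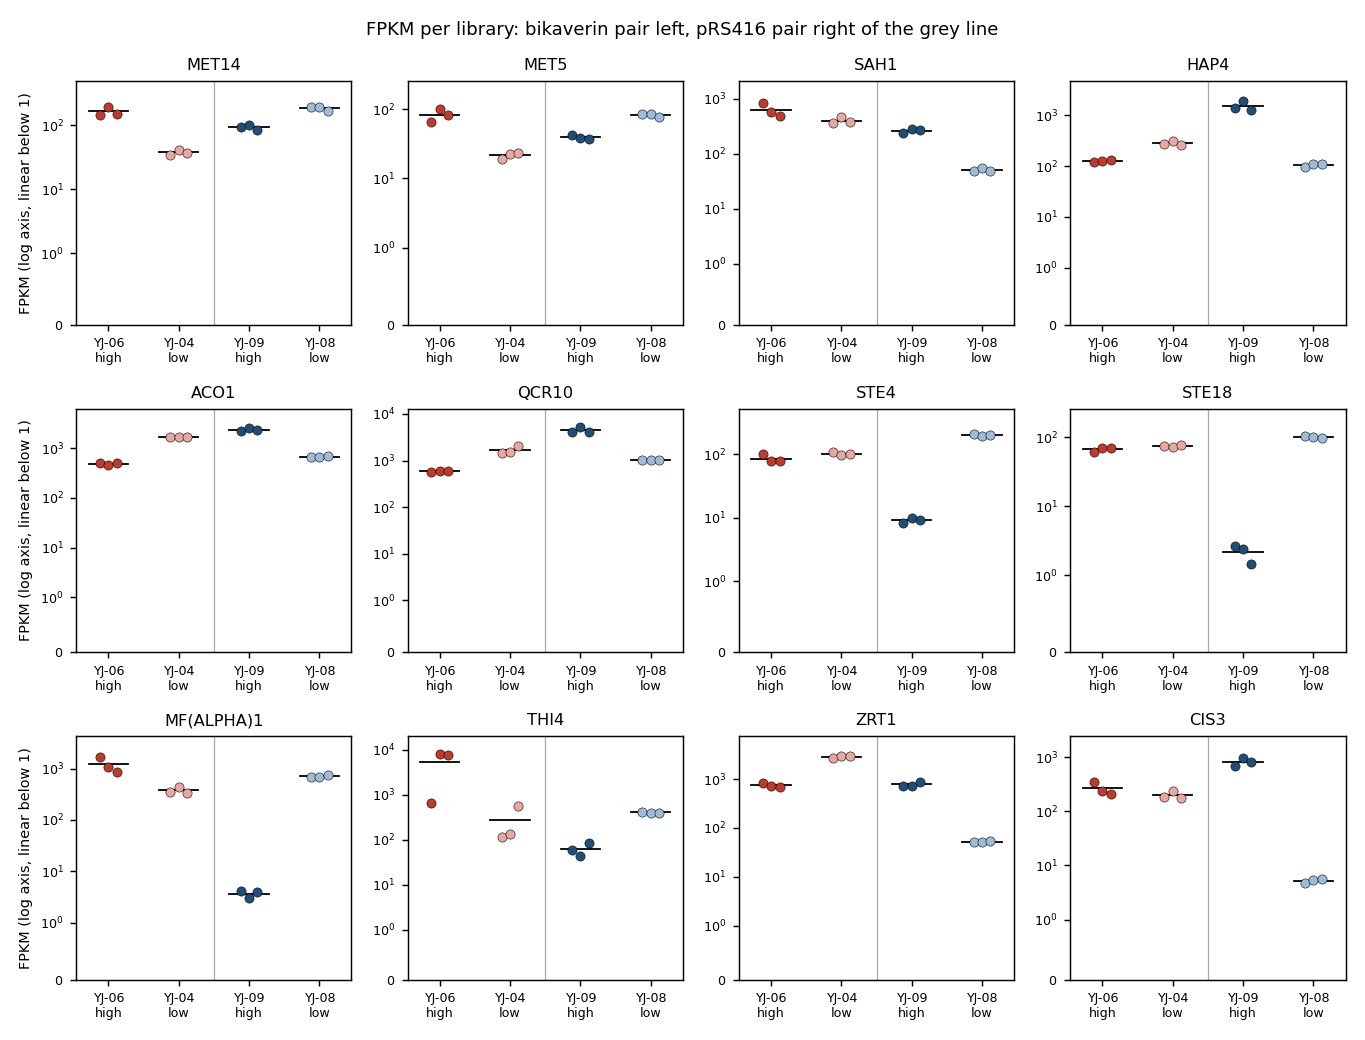
FPKM in each library (vertical axis, logarithmic and linear below 1) for 12 genes, with YJ-06 and YJ-04 left and YJ-09 and YJ-08 right of the grey line; points are libraries and bars are means. MET14, MET5 and MF(ALPHA)1 are higher in YJ-06 and lower in YJ-09 than in their low-SAM partner, and HAP4, ACO1, QCR10 and ZRT1 the reverse.

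Thiamine genes gave 12 of 17 higher and none lower, against 27.9% and 29.7% of all features, with a median of 1.69. THI4, an enzyme of the thiazole part of the vitamin, was at 653, 7985 and 7471 FPKM in YJ-06 against 118, 133 and 567 FPKM in YJ-04, and at 58.8, 43.1 and 84.3 FPKM in YJ-09 against 424, 385 and 402 FPKM in YJ-08. YJ-06 replicate 1 stood far below the other 2 libraries of its strain, and YJ-04 replicate 3 above its own. The difference was 6.76 with a wide SE of 1.14, and 7.94 without YJ-06 replicate 1. Without that library 15 of the 17 genes were called higher. THI20, a kinase of the pyrimidine part, gave 2.18, and the near-identical THI5, THI11, THI12 and THI13 share reads, so their values are uncertain.

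Of 10 zinc genes 4 were lower and 3 higher, near the shares over all features, with a median of -0.19. ZRT1, the high-affinity zinc transporter, was at 831, 724 and 703 FPKM in YJ-06 against 2709, 2932 and 3024 FPKM in YJ-04, and at 739, 711 and 880.1 FPKM in YJ-09 against 52.1, 50.6 and 53.1 FPKM in YJ-08. The libraries separated in both pairs, in opposite directions, and the difference was -5.81 (SE 0.14). ZRT2, ZRT3 and their activator ZAP1 were lower too (-1.33, -1.11 and -1.22), while differences on the zinc list ran up to 1.29.
Of 25 iron genes 15 were lower and 4 higher, against 29.7% and 27.9% of all features, with a median of -0.71. FIT3, a cell wall protein that helps hold siderophore iron, was at 3027, 4328 and 3491 FPKM in YJ-06 against 4408, 3913 and 4616 FPKM in YJ-04, which overlap. It was at 3040, 3422 and 3835 FPKM in YJ-09 against 134, 129.7 and 136 FPKM in YJ-08. FRE1, a surface reductase of iron and copper, was higher (1.86). Of 9 copper genes tested 4 were higher and 4 lower, against 27.9% and 29.7% of all features, with a median of -0.40. CTR3, a copper transporter with the largest difference of the 9 (3.65), rose in both pairs, to 338, 369.5 and 378 FPKM in YJ-06 against 12.4, 11.98 and 9.75 FPKM in YJ-04, and to 35.6, 34.0 and 42.2 FPKM in YJ-09 against 17.3, 14.5 and 14.2 FPKM in YJ-08.

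The windows of ZRT1 and FIT3 are shown as the largest differences on the zinc and iron lists with the motif of Zap1, ACCTT followed after 1 free base by its inverted repeat, and that of Aft1, TGCACCC. ZRT1 lies at chrVII:20628-20877 on the plus strand and FIT3 at chrXV:1061156-1061405 on the minus strand, with the motif of each in capitals on either strand.
ZRT1: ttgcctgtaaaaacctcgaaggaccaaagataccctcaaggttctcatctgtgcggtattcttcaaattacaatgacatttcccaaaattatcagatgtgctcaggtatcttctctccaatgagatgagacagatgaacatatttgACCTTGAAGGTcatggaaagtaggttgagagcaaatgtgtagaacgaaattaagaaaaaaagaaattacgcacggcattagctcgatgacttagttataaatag
FIT3: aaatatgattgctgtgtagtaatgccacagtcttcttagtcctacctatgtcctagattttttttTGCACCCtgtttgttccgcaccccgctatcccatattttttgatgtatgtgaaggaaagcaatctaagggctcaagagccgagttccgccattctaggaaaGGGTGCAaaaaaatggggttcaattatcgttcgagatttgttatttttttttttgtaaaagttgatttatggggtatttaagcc
The zinc motif stood in 1 of 10 windows of its list and in 5 of 6007 in all (0.0832%). The iron motif stood in 14 of 25 windows of its list (56.0%) and in 75 of 6007 (1.25%).

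Outside these lists the cell wall held some of the largest negative differences. CIS3, a mannoprotein of the cell wall, was at 342, 241 and 213 FPKM in YJ-06 against 181, 234 and 175 FPKM in YJ-04, and at 689, 973 and 801 FPKM in YJ-09 against 4.73, 5.44 and 5.63 FPKM in YJ-08. The bikaverin libraries overlap and the pRS416 libraries lie far apart. CIS3 was not called in the bikaverin pair, and its difference of -6.61 (SE 0.24) was the largest negative one. SCW10, a cell wall glucanase-like protein, GAS1, a beta-glucan remodelling enzyme, and PCL1, a G1 cyclin, rose in both pairs and further with pRS416 (-4.81, -3.35 and -5.29). FLO11, a flocculin, rose by 1.79 in YJ-06 and fell by 1.17 in YJ-09. Of 19 flocculin and cell wall genes 5 were higher and 7 lower, near the shares over all features (27.9% and 29.7%). The higher count was 3 without YJ-04 replicate 1 or 2, YJ-06 replicate 1, any 1 of the YJ-08 replicates, or YJ-09 replicate 1 or 2.

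Genes for building ribosomes were higher in 24 of 44 cases and lower in none, against 27.9% and 29.7% of all features. Their median was 0.49. Most rose in both pairs: 42 were called up in YJ-06 and 31 in YJ-09, against 29.3% and 39.5% of all features. RRN3, a factor for RNA polymerase I, gave the largest difference on this list, 1.69 (SE 0.13). Cytosolic ribosomal proteins showed 43 of 138 higher and 8 lower, against 27.9% and 29.7% of all features, and 87 were not called. With quantile normalization 89 were higher, and the lower count was 5 without YJ-04 replicate 2 or YJ-08 replicate 3. Mitochondrial ribosomal proteins showed 16 of 69 higher and 21 lower, close to the shares over all features (27.9% and 29.7%). Their median was -0.04, and 11 were lower without YJ-08 replicate 2.

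Genes of the peroxisomal beta-oxidation pathway fell in both pairs, 15 of 17 called down in YJ-06 and 14 in YJ-09. Over all features the shares called down were 28.4% and 38.4%. In the difference 12 of the pathway's genes were lower and 3 higher, against 29.7% and 27.9% of all features. The list's median was -0.64. FOX2, its multifunctional enzyme, fell by 2.48 in YJ-06 and by 0.89 in YJ-09. Of 25 ergosterol genes 13 rose in YJ-06 and 17 in YJ-09, against 29.3% and 39.5% of all features. In the difference 9 were lower and 4 higher, against 29.7% and 27.9%.

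URA3, the marker on pRS416, was at 1661, 1391 and 1287 FPKM in YJ-06 against 795, 839 and 748 FPKM in YJ-04, and at 1125, 718 and 1334 FPKM in YJ-09 against 1624, 1517 and 1539 FPKM in YJ-08. Its response was opposite in the pairs, with a difference of 1.46 (SE 0.25, limma adjusted p = 3.3e-04). HSP30, a plasma membrane heat shock protein, and UPS2, a mitochondrial lipid transfer protein, rose in both pairs and further with pRS416, with differences of -4.72 and -4.44. YDL218W and YCL048W-A, given without a role, were the other large positive differences after THI4, at 6.17 and 5.97: each fell steeply in YJ-09, to 17.3, 20.7 and 18.5 FPKM against 1589, 1590 and 1594 FPKM in YJ-08 for YDL218W.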

How the data were processed

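RNA from 12 samples was sequenced, and the authors deposited FPKM values in 2 tables, 1 for each strain pair, with names of 6845 (bikaverin) and 6818 (pRS416) features. Listed with build R64 are HISAT2 2.0.5, featureCounts 1.5.0-p3 and fastp, per the submitters' processing notes. How strand was treated, the annotation and any filters are not stated there. Library names matched columns to samples, since the description label holds other column numbers. For matching, 713 identifiers of the pRS416 table were respelled with a hyphen. Left out were 14 numbered features without a gene identifier, since each table numbers them by itself. R64 annotation matched 5846 tested features (93.58%).

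Per library, log2(FPKM + 1) was fitted with limma 3.58.1 in R 4.3.3, with 4 strain means in 1 fit over the 12 libraries, an intensity trend and no replicate block, for features of at least 1 FPKM on average. The tested value is (YJ-06 minus YJ-04) minus (YJ-09 minus YJ-08); each pair was also fitted within its own table. Folds on this scale understate changes of low genes. The fit was also run on simulated counts that gave all genes and strains the same spread beyond counting error, which these data need not share. No result here rests on that run. Tests are two-sided. In low genes FPKM times length came in steps of 1 read: 97.4% to 98.9% of the values lay within 0.02 of a whole read. Per kilobase, 3 reads are 0.170 to 0.195 FPKM (bikaverin) and 0.0665 to 0.0737 FPKM (pRS416). Counting intervals cover counting error only. Copies were found with BLAST+ 2.17.0 (at least 90% identity over 50% of length). Promoter windows come from RefSeq R64, for 6007 genes.

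The genes and lists were chosen with earlier results of these data known. Named genes were the 10 largest called differences in each direction, the 8 largest opposite responses and 4 largest shared ones in each direction, up to 6 members of each list by p, and a fixed set (SAM1, SAM2, SAH1, MET6, MET17, MET3, SUL1, SUL2, HAP4, STE4, URA3); MET10, ADY2, ALD6 and OPI3, outside this rule, were chosen after their values were seen. Listed genes that were not in both tables or were below the limit (such as MATALPHA1, MET28 and proteins of the mitochondrial genome) were not analysed here. Alternatives tried: pseudocount 0.1, filters, block, scalings, spread per table, no trend, robust moderation, and each library left out.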

Additional observations from a re-analysis of the deposited data

Results flagged for a closer look

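The response to high SAM differed between the pairs, by the test of the difference itself, for 3600 features. Opposite responses were called for 265 features that were higher in YJ-06 and lower in YJ-09 and for 296 that were lower in YJ-06 and higher in YJ-09. At the extremes were MF(ALPHA)1, with a difference of 8.888, and CIS3, with -6.612.

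A signal outside the tested features was seen in the pRS416 table, which lists 6 features of the bikaverin module. Their summed FPKM was 3.575, 0 and 0.895 in YJ-09 and 1.088, 0.0655 and 0.0459 in YJ-08, although these strains are labelled with plasmid pRS416. The levels in the bikaverin strains were not analysed here. Whether this changed any tested value was not tested.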

How the results depend on the processing

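The count of called differences was 3600 and stayed within 1.5 times that number under every alternative run: 3570 with pseudocount 0.1 FPKM, 3614 with no filter, 3382 with a mean of at least 10 FPKM, 3605 with median-centred libraries, 3646 with quantile normalization, 3670 with a spread for each table, 3554 with no trend, 3594 with robust moderation, and 3610 with the 14 numbered features that have no gene identifier (an alternative chosen after seeing the data). Leaving out 1 library gave 3259 to 3591 calls, and 446 to 560 opposite responses. At an unadjusted p below 0.05 there were 3895. No call changed sign. Of the 299 named genes, between 0 and 5 lost their call in any 1 setting.

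With the replicate block the count was 3406, of which 3342 were shared with the main count. Same-numbered libraries correlated in their deviations at 0.05, -0.06 and 0.16 in the bikaverin pair and at -0.15, -0.01 and -0.14 in the pRS416 pair, and not every library correlated best with its own number, so the numbers were not taken as pairs. Quantile normalization put 52.5% of calls on the higher side, against 48.4% before. The depth of the bikaverin table limits genes near 1 FPKM.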

Other observations

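A list of genes linked to oxygen or heme supply, 17 of them tested, gave 9 lower and 2 higher, against 29.7% and 27.9% of all features. Its median difference was -0.75. NCE103, carbonic anhydrase, averaged 356 FPKM in YJ-06 against 514 FPKM in YJ-04, and 2113 FPKM in YJ-09 against 186 FPKM in YJ-08, with a difference of -3.99 (SE 0.24). ROX1, the repressor of hypoxic genes, was not called in the bikaverin pair (-0.09) and rose by 2.10 in YJ-09. TIR4, a cell wall mannoprotein of anaerobic growth, went the other way, with a difference of 2.27.

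Genes repressed by good nitrogen sources fell in both pairs, 17 of 25 in YJ-06 and 17 in YJ-09, against 28.4% and 38.4% of all features. In the difference 11 were higher and 7 lower, against 27.9% and 29.7%. PUT4, the proline permease, averaged 36.5 FPKM in YJ-06 against 348 FPKM in YJ-04, and 4.21 FPKM in YJ-09 against 295 FPKM in YJ-08. PUT1, the first enzyme of proline breakdown, fell by 1.84 in YJ-06 and rose by 0.63 in YJ-09. In the phosphate regulon PHO3, an acid phosphatase that also serves thiamine uptake, averaged 284 FPKM in YJ-06 against 25.8 FPKM in YJ-04 and was not called in the pRS416 pair (-0.01). The unfolded protein response gave 7 of 15 lower and 3 higher, against 29.7% and 27.9% of all features. KAR2, the chaperone of the endoplasmic reticulum, was at -1.61. GDH1, the main glutamate dehydrogenase of nitrogen assimilation, averaged 836 FPKM in YJ-06 against 1083 FPKM in YJ-04, and 119 FPKM in YJ-09 against 756 FPKM in YJ-08, with a difference of 2.28.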
